A study of Mus musculus with 12 samples.

Results

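The genes examined here were 10 components of TNF, IL-6 family and STAT3 signalling, of 35944 annotated genes in the expression tables. They were listed by gene name: the cytokines Tnf, Il6, Il10, Osm, Lif and Il11, the receptor chains Il6ra and Il6st, the transcription factor Stat3 and the feedback inhibitor Socs3. All 10 passed the filter on low counts, as did 15485 genes in total. RNA-Seq had been performed on 12 tumours of 4T1, a mammary carcinoma cell line of BALB/c mice, with 3 tumours in each of 4 groups. Female BALB/c mice aged 6 to 8 weeks had received 100000 of these cells under the skin of the flank. Extracellular vesicles (EVs, membrane particles that cells shed) were then placed beside the tumour every 2 days in doses of 3 µg, from day 5 until the tumours were taken on day 21. The EVs came from MS-1, a mouse endothelial cell line, and had been electroporated with a miRNA mimic: that of cel-miR-67, a nematode miRNA that mice lack (ctrl-EVs), or that of a mouse miRNA, either miR-222-3p, miR-183-5p or miR-142-5p. How much mimic reached the tumours is not part of these data. All 4 groups thus received EVs, and no group without EVs was analysed here. The tissue was whole tumour, so that a transcript level sums carcinoma, immune and stromal cells.

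IL-6 family cytokines signal through a shared receptor chain, gp130, which Il6st encodes. Ligand binding activates JAK kinases, these phosphorylate STAT3, and STAT3 enters the nucleus and induces genes among which is Socs3, whose product blocks the JAKs and gp130 and so limits the signal. TNF acts through its own receptors and NF-kB, and NF-kB in turn induces Il6, while IL-10 uses a separate receptor that also activates STAT3 and dampens macrophage activation. In mammary tumours these cytokines are made by macrophages, neutrophils, fibroblasts and carcinoma cells.

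The 3 mimics carry different seeds (bases 2 to 8, in capitals), and the sequences are shown because a seed match in a 3′ UTR is the usual first criterion for a miRNA target. The miR-222-3p mimic that the study lists is shorter at its 3′ end than the mature sequence shown here, with the same seed. The mature mouse sequences (RefSeq, GRCm38.p6) were as follows, with no seed shared between any pair. The first is encoded on the plus strand at chr11:87756867-87756887, the second on the minus strand at chr6:30169711-30169732 and the third on the minus strand at chrX:19146901-19146923.
miR-142-5p: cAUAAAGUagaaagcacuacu
miR-183-5p: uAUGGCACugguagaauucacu
miR-222-3p: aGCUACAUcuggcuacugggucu

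Matches to these seeds were searched in the 3′ UTR of the most abundant protein-coding transcript of each gene. An 8mer pairs with bases 2 to 8 and is followed by A, a 7mer-m8 lacks that A, and a 7mer-A1 pairs with bases 2 to 7 and is followed by A. Of the 10 genes, 4 held 9 matches (Il10, Osm, Il6ra and Il6st), and none was found in Tnf, Il6, Il11, Lif, Stat3-203 or Socs3. The longest 3′ UTRs searched were those of Il6ra-202 (7102 bases, 2 matches) and Il6st-203 (5641 bases, 3 matches to miR-142-5p and 1 to miR-183-5p). The share of matches over the 3′ UTRs of all genes was not computed, so it is not known whether these genes hold more than others. The only 8mer was that of miR-142-5p in Il10. Il6st held the only match to miR-183-5p, a 7mer-A1. The matches are shown 5′ to 3′ on the transcript, with the matched bases in capitals.
Il10 and miR-142-5p, 8mer, chr1:131024537-131024544: ttggggacACTTTATAgtatttaa
Il10 and miR-222-3p, 7mer-A1, chr1:131024932-131024938: tctgccttTGTAGCAgactctaa
Osm and miR-142-5p, 7mer-m8, chr11:4240592-4240598: agcaagacACTTTATttatccga
Il6ra and miR-222-3p, 7mer-m8, chr3:89864236-89864242, minus strand: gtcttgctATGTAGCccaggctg
Il6st and miR-142-5p, 7mer-m8, chr13:112504622-112504628: atgaactgACTTTATcctctata
Il6st and miR-142-5p, 7mer-m8, chr13:112505293-112505299: gaggaagcACTTTATccagaatg
Il6st and miR-183-5p, 7mer-A1, chr13:112509292-112509298: gttgacccTGCCATAaatgtctt

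The other 2 matches were a 7mer-A1 to miR-222-3p in Il6ra and a 7mer-A1 to miR-142-5p in Il6st. When every annotated protein-coding transcript was searched, Stat3-202 also held 3 matches, so that 5 genes had one, but Stat3-202 made up 0.894% of the Stat3 TPM. A match of letters is a description and does not show binding.

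Libraries held between 20285968 and 27021401 estimated reads. Several tumours stood apart from the others in ways that the labels do not name. Summed B cell markers (4 genes) reached 419 TPM in miR-142-5p tumour 3 and between 1.02 and 2.79 TPM in the 11 other tumours. Summed skeletal muscle markers (5 genes) reached 336 TPM in miR-183-5p tumour 3 and at most 25.7 TPM elsewhere, with Acta1 and Myh4 at 0 in some libraries. Reads divided between the mitochondrial gene mt-Co2 and its pseudogene Gm28661 formed 2 sets of libraries. In 4 libraries, namely tumour 3 of the miR-183-5p-EV group and the whole miR-222-3p-EV group, at most 0.324% of these reads fell on the pseudogene, and in the 8 other libraries at least 7.13%. What sets these 4 libraries apart cannot be told apart from an effect of miR-222-3p-EVs. The carcinoma markers Epcam, Krt8, Krt18, Krt19 and Cdh1 were detected in every tumour, with a summed level of 1265 to 1855 TPM.

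The 10 genes differed widely in level. Levels between genes are compared in TPM, which is corrected for transcript length. Stat3 was the most abundant, at 113 ± 19.996 TPM (mean ± SD, n = 12 tumours), followed by Socs3 at 81.4 ± 13.2 TPM, Il6st at 39.9 ± 11.4 TPM and Il6ra at 21.8 ± 4.58 TPM. Lif stood next at 19.7 ± 7.19 TPM and was thus the most abundant of the 6 cytokines. Osm followed at 7.37 ± 2.33 TPM. The remaining cytokines were scarce, with Il11 at 4.10 ± 2.18 TPM, Tnf at 3.40 ± 0.838 TPM, Il6 at 3.34 ± 1.73 TPM and Il10 at 2.01 ± 0.968 TPM. Neighbours in this order were compared within each tumour by a two-sided exact permutation (sign-flip) test, adjusted over the 9 pairs. Il6ra and Lif did not differ beyond their spread, as Il6ra was higher in 8 of 12 tumours (adjusted exact p = 0.402). Neither did Il11 and Tnf (7 of 12 tumours, adjusted exact p = 0.603), nor Tnf and Il6 (8 of 12 tumours, adjusted exact p = 0.681). Osm exceeded Il11 in 11 of 12 tumours (adjusted exact p = 0.00293). The 5 other neighbouring pairs kept their order in all 12 tumours (adjusted exact p = 0.000879). The order was the same with medians in place of means and with normalised counts per kilobase.

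**Figure D1:**
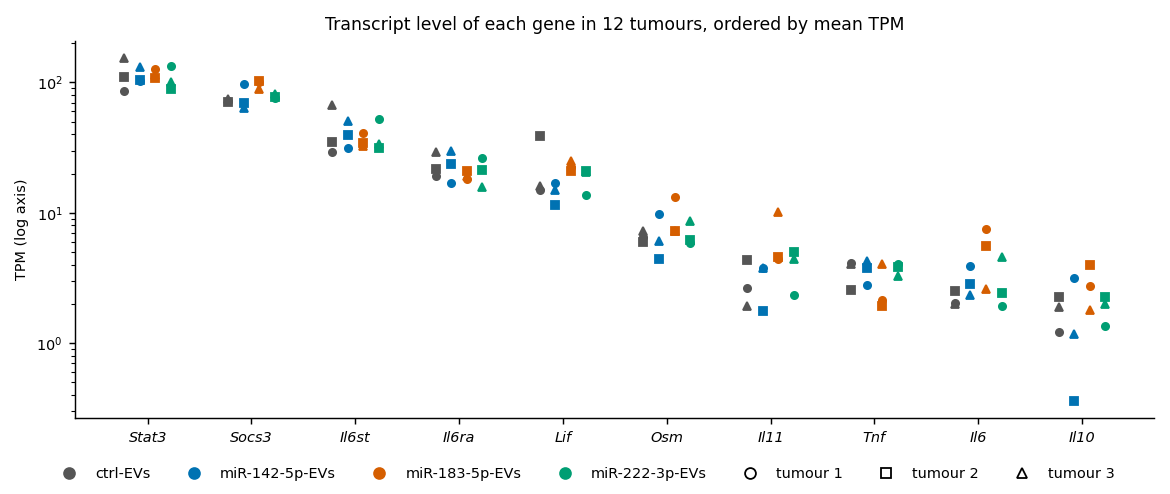
TPM of each of the 10 genes (log axis) in each of the 12 tumours, with colour for the EV group and symbol for the tumour number. Stat3 and Socs3 lie near 100 TPM and Il10 near 2 TPM, and miR-142-5p tumour 2 holds the lowest value, 0.359 TPM of Il10.

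Counting error weighs most on the scarce genes. Il10 was covered by 6 to 79 estimated reads per tumour, Il6 by 32 to 150, Tnf by 50 to 103 and Il11 by 42.2 to 270, whereas Stat3 had 4619 to 7295 and Il6st 3809 to 6995. The within-group SD of log2 normalised counts was 0.86 for Il10, 0.64 for Il11 and 0.58 for Il6, which placed them at the 94.2, 87.8 and 85.2 percentile of all genes tested. It was 0.22 for Stat3 and 0.23 for Socs3, at the 45.3 and 48.3 percentile. Of the 10 genes, Stat3 and Socs3 thus varied least within groups and Il10 most.

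To determine whether the EVs altered these genes, each miRNA group was compared to ctrl-EVs with DESeq2 (Wald test, Benjamini-Hochberg over all genes). None of the 10 genes passed an adjusted p of 0.05 in any of the 3 comparisons. Among all genes tested, 0.00648% passed for miR-142-5p-EVs, 0% for miR-183-5p-EVs and 0.0259% for miR-222-3p-EVs, so that calls were rare throughout. At an unadjusted p under 0.05 the counts were 1, 3 and 0 of 10 genes, beside 3.58%, 3.21% and 2.31% of all genes. With edgeR's quasi-likelihood test they were 0, 3 and 0, and again no gene passed after adjustment. The median log2 fold change of the 10 genes was 0.00324 for miR-142-5p-EVs, 0.25 for miR-183-5p-EVs and 0.06 for miR-222-3p-EVs, against -0.00473, -0.01 and -0.00769 over all genes. The 3 comparisons share the same 3 ctrl tumours and are not independent of each other.

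**Figure D2:**
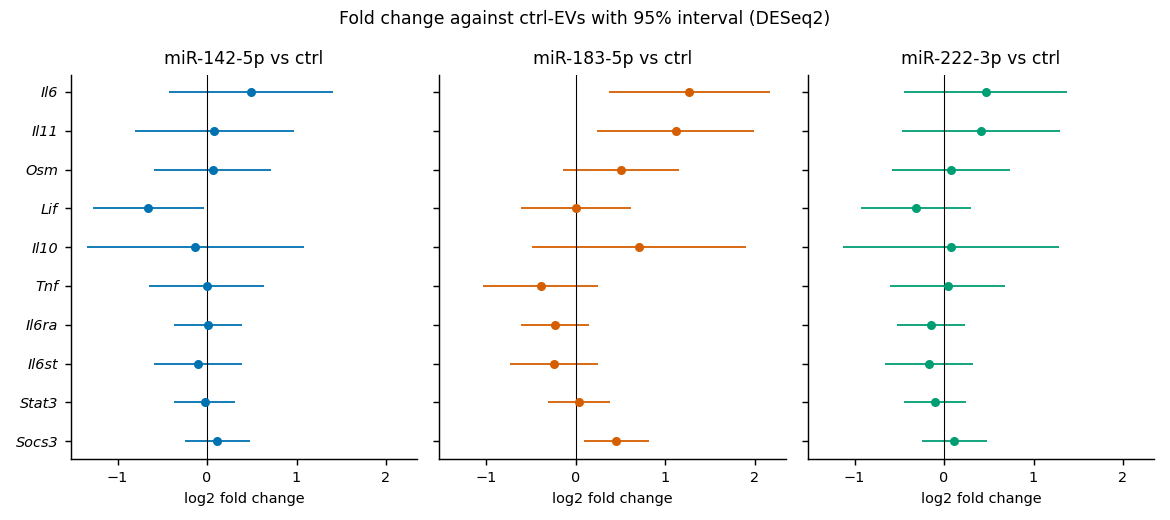
Log2 fold change of the 10 genes in each miRNA group against ctrl-EVs, with the 95% interval from DESeq2 as bars and a line at 0. The intervals of Il6, Il11 and Socs3 lie above 0 in miR-183-5p-EV tumours and that of Lif below 0 in miR-142-5p-EV tumours, all before adjustment over the 15438 genes with a p-value.

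With miR-183-5p-EVs, every tumour lay above every ctrl tumour for 4 of the 10 genes, Il6, Il11, Osm and Socs3, and below for 0 of 10. Over all genes this happened in 4.44% (higher) and 4.77% (lower). For miR-142-5p-EVs no gene of the 10 was separated from ctrl in this way, beside 3.13% (higher) and 2.94% (lower) of all genes, and for miR-222-3p-EVs none, beside 2.95% and 2.57%. In bulk tumour RNA, more or fewer cells of a type and more or less RNA per cell cannot be told apart.

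Il6 (ENSMUSG00000025746.11, chromosome 5, 30013114 to 30019981 on GRCm38) encodes the cytokine that gives the family its name. Its normalised read count was 39.01, 43.3 and 33.1 in ctrl tumours 1 to 3. With miR-183-5p-EVs it was 131, 101 and 46.2. It was 73.9, 50.9 and 38.5 in miR-142-5p-EV tumours and 31.8, 42.6 and 84.6 in miR-222-3p-EV tumours. The 3 miR-183-5p-EV tumours were thus the only group to lie wholly above ctrl, with tumour 3 close to the highest ctrl tumour. Before correction for length, this tumour 3 had 45 estimated reads and ctrl tumour 2 had 46.0. Their mean effective lengths were 1038 and 1201 bases, so that the separation depended on this correction. Without it the log2 fold change of the miR-183-5p-EV group against ctrl was 1.13 (DESeq2 unadjusted p = 0.0126). Il6 was 2.42-fold higher with miR-183-5p-EVs (log2 fold change 1.27, SE 0.46, 95% interval 0.37 to 2.17, DESeq2 unadjusted p = 0.00564, adjusted p = 0.999999), and the log2 fold change was 0.94 without tumour 1 (unadjusted p = 0.0685) and 1.59 without tumour 3. For miR-142-5p-EVs the log2 fold change was 0.50 (SE 0.47) and for miR-222-3p-EVs 0.46 (SE 0.47).

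Il11 (ENSMUSG00000004371.15, chromosome 7, 4772373 to 4782859), a gp130 cytokine known for its stromal origin in tumours, had counts of 77.2, 115 and 48.4 in ctrl tumours. In miR-183-5p-EV tumours they were 119, 128 and 275, so that tumour 3 stood well above all others. They were 109, 48.3 and 95.9 with miR-142-5p-EVs and 59.8, 134 and 125 with miR-222-3p-EVs, both overlapping ctrl. The log2 fold change with miR-183-5p-EVs was 1.12 (SE 0.45, 95% interval 0.24 to 2.00, DESeq2 unadjusted p = 0.0124, adjusted p = 0.999999). Without tumour 3, which is the tumour with muscle markers and in the other library set, it was 0.63 (unadjusted p = 0.174).

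Osm (ENSMUSG00000058755.3, chromosome 11, 4236420 to 4241026), oncostatin M, is made chiefly by myeloid cells. Counts were 238, 198 and 232 in ctrl tumours and 449, 253 and 247 in miR-183-5p-EV tumours, where tumour 1 stood apart and the others were just above ctrl. They were 355, 150.9 and 192 with miR-142-5p-EVs and 187, 209 and 309 with miR-222-3p-EVs. The log2 fold change with miR-183-5p-EVs was 0.51 (SE 0.33, 95% interval -0.14 to 1.16), and it was 0.17 without tumour 1 and 0.66 without tumour 3. With miR-142-5p-EVs, whose seed has a match in Osm, it was 0.06 (SE 0.33).

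Lif (ENSMUSG00000034394.14, chromosome 11, 4257557 to 4272514), leukaemia inhibitory factor, lies 16530 bases from Osm on the same strand. Ctrl tumour 2 had the highest count of all, 2122, while ctrl tumours 1 and 3 had 908 and 855. Counts were 1013, 656 and 793 with miR-142-5p-EVs, 1250, 1224 and 1430 with miR-183-5p-EVs and 721, 1183 and 1219 with miR-222-3p-EVs. The miR-142-5p-EV tumours overlapped ctrl, with a log2 fold change of -0.66 (SE 0.32, 95% interval -1.28 to -0.04, DESeq2 unadjusted p = 0.0373, adjusted p = 0.999956). Without ctrl tumour 2 it was -0.10 (DESeq2 unadjusted p = 0.665). With miR-183-5p-EVs the log2 fold change was 0.00648 (SE 0.32), and without ctrl tumour 2 it was 0.56 (unadjusted p = 0.0198), so that both comparisons rested on 1 ctrl tumour.

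**Figure D3:**
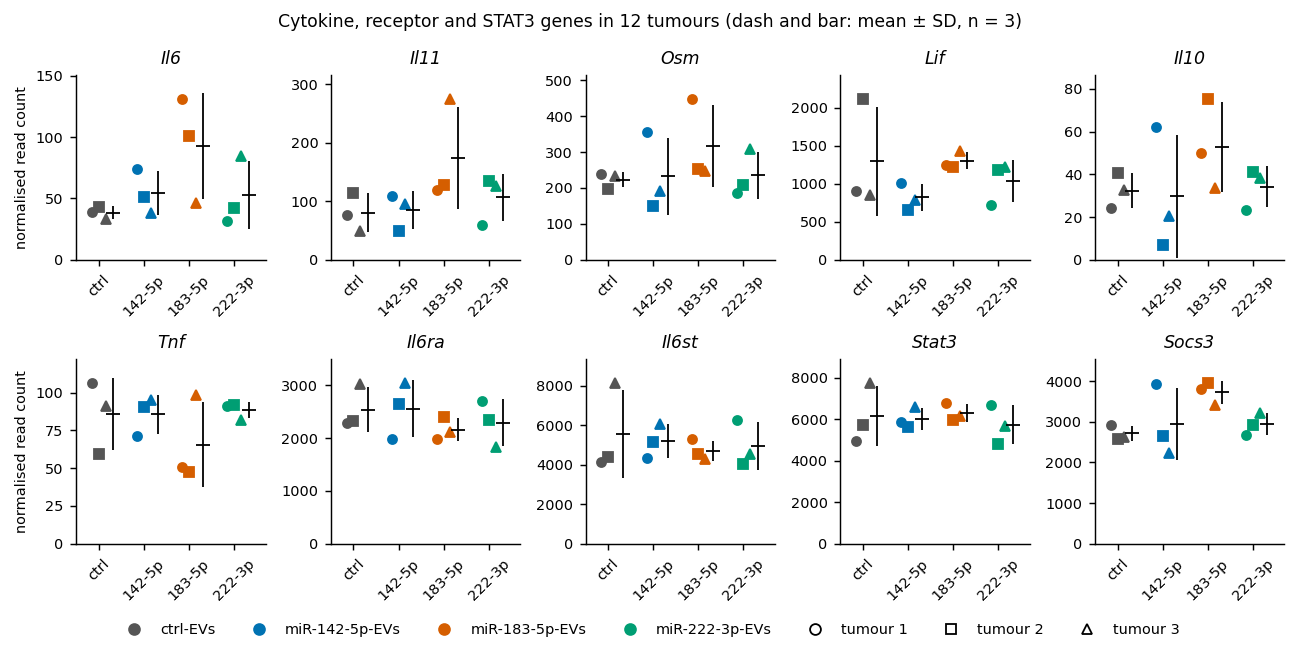
Normalised read count of the 10 genes in each tumour by EV group (symbols are tumours 1 to 3, dash and bar are the mean ± SD, n = 3, axes start at 0). The miR-183-5p-EV tumours lie wholly above the ctrl tumours for Il6, Il11, Osm and Socs3, while groups overlap for Stat3, Il6ra and Il6st.

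For both receptor chains every group overlapped ctrl. Il6ra (ENSMUSG00000027947.11, chromosome 3, 89864059 to 89913196) encodes the ligand-binding IL-6 receptor. Its counts were 2284, 2316 and 3026 in ctrl tumours, 1987, 2638 and 3050 with miR-142-5p-EVs, 1978, 2393 and 2116 with miR-183-5p-EVs, and 2713, 2338 and 1833 with miR-222-3p-EVs. The log2 fold changes were 0.00946, -0.23 and -0.15 (SE 0.19 in each), and the 95% intervals lay between -0.62 and 0.39. Il6st (ENSMUSG00000021756.12, chromosome 13, 112464070 to 112510086) had counts of 4122, 4407 and 8151 in ctrl tumours, of which the last was the highest of all 12. Counts were 4343, 5142 and 6075 with miR-142-5p-EVs, 5284, 4554 and 4274 with miR-183-5p-EVs, and 6290, 4016 and 4536 with miR-222-3p-EVs. Its log2 fold changes were -0.10, -0.24 and -0.17 (SE 0.25 in each), and all turned positive without ctrl tumour 3, at 0.28, 0.14 and 0.22. The 3 matches to miR-142-5p in Il6st thus stood beside a 95% interval of -0.60 to 0.40 with miR-142-5p-EVs.

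Stat3 (ENSMUSG00000004040.16, chromosome 11, 100885098 to 100939540) showed no separation either. Counts were 4976, 5718 and 7769 in ctrl tumours, 5856, 5620 and 6616 with miR-142-5p-EVs, 6807, 5962 and 6149 with miR-183-5p-EVs, and 6712, 4815 and 5693 with miR-222-3p-EVs. Log2 fold changes were -0.03, 0.04 and -0.10 (SE 0.18 in each), with 95% intervals from -0.44 to 0.38. These data hold transcript levels only, and STAT3 activity is set by phosphorylation, which was not measured in them.

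Socs3 (ENSMUSG00000053113.3, chromosome 11, 117966079 to 117970047), the feedback inhibitor, was the most precisely measured of the genes that separated from ctrl. Its counts were 2930, 2586 and 2623 in ctrl tumours and 3796, 3960 and 3413 in miR-183-5p-EV tumours. They were 3928, 2647 and 2242 with miR-142-5p-EVs, of which tumour 1 lay in the range of the miR-183-5p-EV tumours, and 2677, 2911 and 3218 with miR-222-3p-EVs. With miR-183-5p-EVs Socs3 was 1.37-fold higher (log2 fold change 0.46, SE 0.18, 95% interval 0.10 to 0.82, DESeq2 unadjusted p = 0.0132, adjusted p = 0.999999), and leaving out any 1 tumour of the 2 groups gave 0.41 to 0.52, with 0.51 without miR-183-5p tumour 3. The log2 fold change was 0.12 with miR-142-5p-EVs and 0.11 with miR-222-3p-EVs (SE 0.18 in each).

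Tnf (ENSMUSG00000024401.14, chromosome 17, 35199381 to 35202007), the main inducer of NF-kB in inflammation, had counts of 106, 59.6 and 91.4 in ctrl tumours. In miR-183-5p-EV tumours they were 50.7, 47.8 and 98.3, with the first pair below and the third among the ctrl tumours. They were 70.9, 90.5 and 94.97 with miR-142-5p-EVs and 90.9, 91.5 and 82.0 with miR-222-3p-EVs. The log2 fold change with miR-183-5p-EVs was -0.39 (SE 0.33), and without tumour 3 it was -0.80 (DESeq2 unadjusted p = 0.0123). It was -0.00299 (SE 0.33) with miR-142-5p-EVs and 0.04 (SE 0.33) with miR-222-3p-EVs.

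Il10 (ENSMUSG00000016529.5, chromosome 1, 131019845 to 131024974), an anti-inflammatory cytokine, was the scarcest of the genes. Counts were 24.3, 40.4 and 32.5 in ctrl tumours, 62.1, 6.70 and 20.3 with miR-142-5p-EVs, 49.8, 75.4 and 33.5 with miR-183-5p-EVs, and 23.2, 41.2 and 38.4 with miR-222-3p-EVs. The miR-142-5p-EV tumours thus held both a value above all ctrl tumours and the lowest value of all. The log2 fold changes were -0.13 (SE 0.62), 0.71 (SE 0.61) and 0.08 (SE 0.62), with intervals spanning -1.35 to 1.90. For Il10, which holds the only 8mer to miR-142-5p, the 95% interval with miR-142-5p-EVs was -1.35 to 1.08. Without miR-142-5p tumour 1 the log2 fold change was -1.24 (DESeq2 unadjusted p = 0.0321, adjusted p = 0.706). It was 0.33 without miR-142-5p tumour 2, 0.08 without miR-142-5p tumour 3 and 0.06 without ctrl tumour 2. Its sign thus depended on single tumours.

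The miRNA groups were also compared with each other, which leaves the ctrl tumours out of the contrast. No gene of the 10 passed in any of these comparisons, beside 0.0518% of all genes for miR-183-5p-EVs against miR-142-5p-EVs, 0.0324% for miR-183-5p-EVs against miR-222-3p-EVs and 0.0389% for miR-142-5p-EVs against miR-222-3p-EVs. Unadjusted p-values under 0.05 numbered 2, 0 and 0 with DESeq2, beside 7.94%, 3.25% and 3.62% of all genes, and 1, 0 and 0 with edgeR. Between miR-183-5p-EVs and miR-142-5p-EVs, Il11 had a log2 fold change of 1.04 (SE 0.45, DESeq2 adjusted p = 0.484) and Lif of 0.66 (SE 0.32, adjusted p = 0.570), and for both genes each miR-183-5p-EV tumour lay above each miR-142-5p-EV tumour. Over all genes such a separation was found in 5.92% (higher) and 6.44% (lower). In a fit of these 2 groups alone Lif passed (log2 fold change 0.66, DESeq2 adjusted p = 0.0478). Without miR-142-5p tumour 1, Socs3 (log2 fold change 0.61, SE 0.14, DESeq2 adjusted p = 0.00168) and Il10 (log2 fold change 1.95, SE 0.57, adjusted p = 0.0295) passed. With all tumours the values were 0.34 (SE 0.18, adjusted p = 0.678) for Socs3 and 0.84 (SE 0.61, adjusted p = 0.858) for Il10, so that 1 tumour decided these calls.

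A likelihood ratio test in DESeq2 asked whether any of the 4 groups differed. None of the 10 genes passed, beside 0.0595% of all genes. The lowest unadjusted p-values were 0.0392 for Il11, 0.0394 for Il6 and 0.0676 for Socs3, with adjusted p-values from 0.980 to 0.999882 over the 10 genes. An unadjusted p under 0.05 was found for 2 of the 10 genes with DESeq2, beside 4.78% of all genes, and for 0 with edgeR. Without miR-142-5p tumour 1, Socs3 passed this test as well (DESeq2 adjusted p = 0.00336).

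Socs3 is a known STAT3 target, and its level was next set against that of each of the 9 other genes across the 12 tumours. Pearson's r and Spearman's rho of log2(normalised count + 1) were tested with 100000 permutations and adjusted over the 9 relations. Socs3 moved with Il6 (r = 0.80, permutation p = 0.00226, adjusted p = 0.0121; rho = 0.72, permutation p = 0.0107, adjusted p = 0.0350) and with Osm (r = 0.78, permutation p = 0.00268, adjusted p = 0.0121; rho = 0.81, permutation p = 0.00237, adjusted p = 0.0213). It also moved with Il10 (r = 0.68, permutation p = 0.0105, adjusted p = 0.0236; rho = 0.71, permutation p = 0.0117, adjusted p = 0.0350). Against Il6ra the relation was inverse (r = -0.74, permutation p = 0.00660, adjusted p = 0.0198), although its rank correlation did not pass (rho = -0.66, permutation p = 0.0245, adjusted p = 0.0551).

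**Figure D4:**
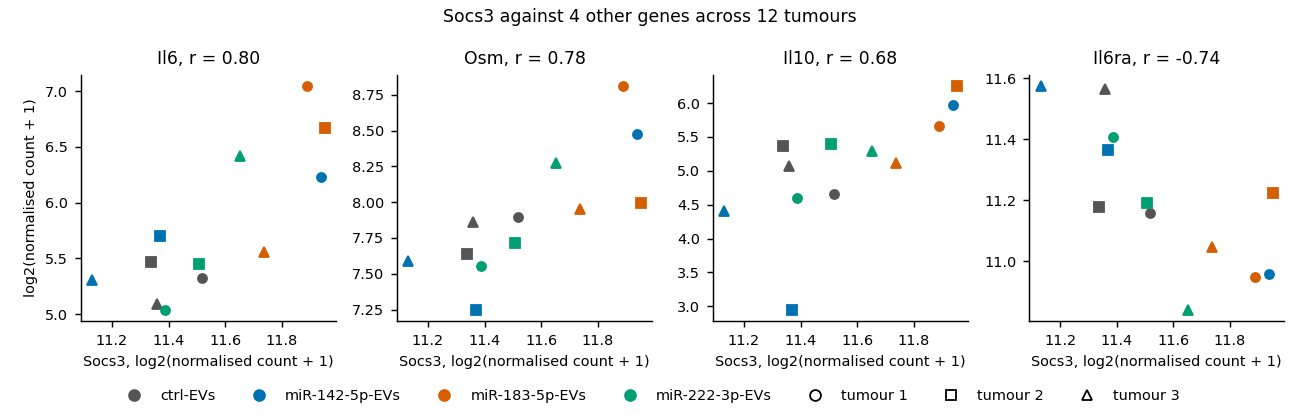
Log2(normalised count + 1) of Il6, Osm, Il10 and Il6ra against that of Socs3 in the 12 tumours (colour for the EV group, symbol for the tumour number), with Pearson's r above each panel. Tumours high in Socs3, namely miR-142-5p tumour 1 and the miR-183-5p-EV tumours, are mostly high in Il6, Osm and Il10 and low in Il6ra.

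Without the 2 tumours farthest from the median of Socs3 (miR-142-5p tumour 1 and miR-183-5p tumour 2), r was 0.74 for Il6, 0.81 for Osm, 0.49 for Il10 and -0.84 for Il6ra, so that the relation with Il10 rested on these tumours. With the group means subtracted, r was 0.67 for Il6, 0.71 for Osm, 0.65 for Il10 and -0.74 for Il6ra. Of these, that with Il10 no longer passed (permutation test, adjusted p = 0.0679). This permutation moved the 12 centred values freely, although subtracting the mean ties the values of a group together. Its p-values are thus too low, and it cannot decide whether the relations with Il6, Osm and Il6ra passed within groups. Within the 8 libraries with a larger share of Gm28661 reads, r was 0.86, 0.78, 0.69 and -0.78 in the same order (exact permutation p = 0.0103, 0.0196, 0.0473 and 0.0283), but none of the 9 relations passed the adjustment. The other library set holds 4 tumours, which are too few for a correlation. On the scale of log2(TPM + 0.5), Il6, Osm and Il10 passed as well, Il6ra did not (r = -0.62, permutation test, adjusted p = 0.0603), and Tnf did (r = -0.71, permutation test, adjusted p = 0.0242), so that the calls of Il6ra and Tnf depended on the scale. On the scale of normalised counts the 5 remaining genes did not pass: r was -0.58 for Tnf (permutation p = 0.0498, adjusted p = 0.0897; rho = -0.38), 0.51 for Il11 (permutation p = 0.0880, adjusted p = 0.132; rho = 0.54), 0.34 for Lif (permutation p = 0.278, adjusted p = 0.313; rho = 0.42), -0.46 for Il6st (permutation p = 0.133, adjusted p = 0.172; rho = -0.36) and -0.10 for Stat3 (permutation p = 0.745, adjusted p = 0.745; rho = -0.04).

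Cell type markers moved with several of these genes, and their part in the results above was not tested. In miR-183-5p-EV tumours the summed neutrophil markers (6 genes, none at 0 in any library) were 1879 to 3042 TPM, against 1051 to 2010 TPM in ctrl, 1019 to 1660 TPM with miR-142-5p-EVs and 882 to 2009 TPM with miR-222-3p-EVs. The summed macrophage markers (7 genes, none at 0) were 903 to 1342 TPM with miR-183-5p-EVs, below the 1365 to 1706 TPM of ctrl. They were 1465 to 2132 TPM with miR-142-5p-EVs and 1189 to 1812 TPM with miR-222-3p-EVs. Fibroblast markers (6 genes, none at 0) were 920 to 1119 TPM with miR-183-5p-EVs and 400 to 912 TPM in ctrl. They were 289 to 773 TPM with miR-142-5p-EVs and 380 to 1388.5 TPM with miR-222-3p-EVs, the group with the highest tumour. No marker of these 3 lists passed an adjusted p of 0.05 between miR-183-5p-EVs and ctrl-EVs (DESeq2). In this comparison 2 of 6 neutrophil markers (higher), 2 of 7 macrophage markers (lower) and 1 of 6 fibroblast markers (higher) had an unadjusted p under 0.05. Over all genes the share was the 3.21% given above.

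The 10 marker sums were set against the 10 genes across the 12 tumours, as log2(TPM + 0.5), which gave 100 relations. After adjustment over the 100, 5 passed by Pearson's r and 0 by Spearman's rho. Il11 was inversely related to macrophage markers (r = -0.91, permutation p = 2.0e-05, adjusted p = 0.00200; rho = -0.81, adjusted p = 0.0582) and related to fibroblast markers (r = 0.84, permutation p = 0.000340, adjusted p = 0.0163; rho = 0.86, adjusted p = 0.0580). Lif was also related to fibroblast markers (r = 0.77, permutation p = 0.00210, adjusted p = 0.0420; rho = 0.83, adjusted p = 0.0582). Osm was related to neutrophil markers (r = 0.79, permutation p = 0.00148, adjusted p = 0.0370; rho = 0.78, adjusted p = 0.0738), and Il6st to endothelial markers (r = 0.87, permutation p = 0.000490, adjusted p = 0.0163; rho = 0.65, adjusted p = 0.224).

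**Figure D5:**
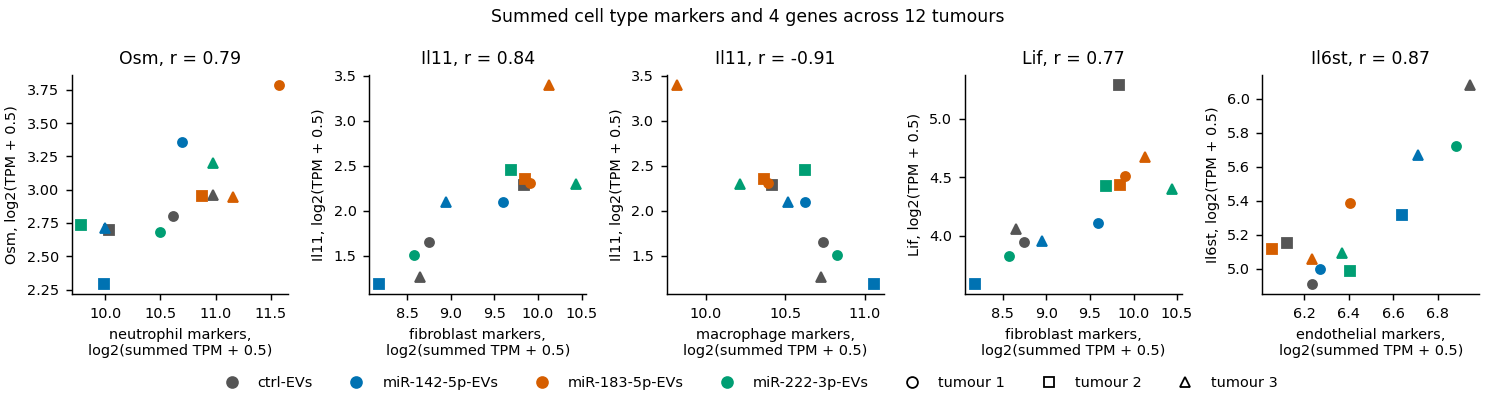
Log2(TPM + 0.5) of Osm, Il11, Lif and Il6st against the log2 summed TPM of a marker list in the 12 tumours (colour for the EV group, symbol for the tumour number), with Pearson's r above each panel. Osm is higher where neutrophil markers are higher and Il11 where macrophage markers are lower. At the ends stand miR-183-5p tumour 1 for Osm and miR-183-5p tumour 3 for Il11.

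Without the 2 tumours farthest from the median of the marker sum, the 5 values of r were -0.75 for Il11 and macrophage, 0.75 for Il11 and fibroblast, 0.64 for Lif and fibroblast, 0.70 for Osm and neutrophil and 0.70 for Il6st and endothelial markers. With group means subtracted they were -0.88, 0.78, 0.83, 0.74 and 0.94 in this order. Within the 8 libraries of the larger set they were -0.92, 0.93, 0.79, 0.86 and 0.88. The relations thus held their direction within groups and within that set.

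To see whether the genes' promoters share binding motifs, the window from 250 bases before to 50 after the start of each gene (RefSeq, GRCm38.p6) was searched on both strands. Of the 10 genes, 8 had a window. Starts are those of RefSeq and were not always those of the most abundant transcript. The Socs3 window, chr11:117969317-117969616, does not hold the start of Socs3-201, the most abundant Socs3 transcript, at 117969186. The Lif window, chr11:4257318-4257617, holds the start of Lif-202 but not that of the more abundant Lif-201, at 4267095. The sequence around these starts was thus not fully searched. The STAT motif TTCNNNGAA occurred in 1 of the 8 genes with a window, Socs3, and in 8.30% of all 32851 windows. The NF-kB consensus occurred in 1, Il6, and in 4.51% of all windows. Both sites are shown with the motif in capitals, as the levels of the 2 genes were related across the tumours.
Socs3, 154 bases before the start, chr11:117969502-117969530, minus strand: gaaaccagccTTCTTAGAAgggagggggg
Il6, 44 bases before the start, chr5:30013060-30013089, plus strand: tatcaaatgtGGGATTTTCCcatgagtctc

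Transcript shares were examined next, since Salmon divides reads between transcripts of a gene. A single transcript held nearly all TPM of Tnf, Il10, Osm (98.1%) and Socs3 (96.0%). Il6-201, Il6-204 and Il6-203 held 47.5%, 37.3% and 15.2% of Il6, and the share of Il6-201 ranged from 12.7% to 85.5% between tumours. Lif-201 and Lif-202, which start at different positions, held 50.6% and 40.4%, and Lif-201 ranged from 21.1% to 81.6%. Il6ra-202, with a 3′ UTR of 7102 bases, held 64.4% of Il6ra and Il6ra-201, with 1837 bases, the remaining 35.6%. Il6st-203 and Il6st-201 held 80.6% and 15.6%, and Il11-201 and Il11-203 held 87.2% and 11.3%. Of Stat3, 68.2% was Stat3-203, and 9 transcripts that retain an intron together held 26.3% ± 6.72 in ctrl, 22.7% ± 3.66 with miR-142-5p-EVs, 23.6% ± 6.82 with miR-183-5p-EVs and 22.4% ± 7.46 with miR-222-3p-EVs (SD, n = 3). As a result the mean effective length of Stat3 ranged from 2681 to 3572 bases between libraries, and without correction for length its log2 fold changes were 0.06, 0.16 and 0.02 in place of -0.03, 0.04 and -0.10. For Stat3 these group means differed by less than their spread between tumours. For Il6 and Il11 some did not: Il6-201 held 61.2% ± 10.1 with miR-183-5p-EVs and 24.4% ± 19.95 with miR-222-3p-EVs, and Il11-201 held 92.4% ± 6.44 and 77.3% ± 8.00 (SD, n = 3). Differences in shares were not tested.

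The wider pathway was described with 8 lists of 114 distinct genes, the 10 genes included, of which 110 were tested. These lists were chosen with earlier results of these data known, so their shares are descriptions. No gene of these lists passed against ctrl-EVs in any of the 3 comparisons with DESeq2 or edgeR. At an unadjusted p under 0.05, 4 were higher and 4 lower with miR-142-5p-EVs, 7 higher and 2 lower with miR-183-5p-EVs, and 0 higher and 2 lower with miR-222-3p-EVs (DESeq2). These were 7.27%, 8.18% and 1.82% of the 110, beside 3.58%, 3.21% and 2.31% of all genes. With edgeR the totals were 8, 6 and 2. Il27ra (the IL-27 receptor), Stat4 and Ltb (lymphotoxin beta) had the lowest p-values of their lists with miR-142-5p-EVs and were highest in tumour 3, the tumour with B cell markers. Summed T cell markers (6 genes, none at 0) were also highest there, at 212 TPM against 27.1 to 83.9 TPM in the other tumours. Of these 6 markers, 3 had an unadjusted p under 0.05 with miR-142-5p-EVs, beside 3.58% of all genes. The part of these markers in the 3 genes' values was not tested. Il27ra counts were 48.6, 89.0 and 491, Stat4 counts 48.9, 75.6 and 264, and Ltb counts 164, 198 and 1087 in miR-142-5p tumours 1 to 3, where ctrl tumours reached at most 85.3, 75.0 and 188. In the fit without tumour 1 of the miR-142-5p-EV group, Ltb passed against ctrl, which gave 1 call in place of 0.

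The list of 10 IL-6 family ligands, which includes Il6, Il11, Osm and Lif, had a median log2 fold change of 0.14 with miR-183-5p-EVs, and 6 of the 10 were positive. The median of the 7 receptors tested was -0.08, and none had such a p-value, Lifr being nearest with -0.34 (SE 0.38). The 12 JAK and STAT transducers had a median of -0.04, with Jak3 at 0.22 (SE 0.16). Of 13 feedback inhibitors, Socs3 was higher and Ptpn6, the phosphatase SHP-1 of haematopoietic cells, was lower (log2 fold change -0.36, SE 0.18, unadjusted p = 0.0439). Of the 20 STAT3-induced genes, 16 had a positive log2 fold change with a median of 0.21. An unadjusted p under 0.05 was found for 2 of the 20, beside 3.21% of all genes. These were Timp1, chosen for mention after its value was seen, and Il4ra. Socs3 is not among the 20. Il4ra, the IL-4 receptor chain, had 3350, 3356 and 3234 counts in ctrl. The 4033, 3633 and 4149 counts with miR-142-5p-EVs lay wholly above these. So did the 4062, 3805 and 3520 counts with miR-183-5p-EVs (log2 fold change 0.20, SE 0.09, DESeq2 unadjusted p = 0.0380, adjusted p = 0.999999).

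The TNF side showed 5 of 18 ligands, receptors and adaptors with a positive log2 fold change and a median of -0.08 with miR-183-5p-EVs, Traf1 having the lowest p (log2 fold change -0.29, SE 0.16, unadjusted p = 0.0692). With miR-222-3p-EVs, 3 of these 18 genes were positive with a median of -0.14, as was 1 of the 12 JAK and STAT transducers with a median of -0.10. Of 21 NF-kB subunits and TNF-induced genes, 12 were positive with miR-183-5p-EVs, with a median of 0.14. With miR-222-3p-EVs 6 were positive, with a median of -0.03. Cxcl2, a neutrophil-attracting chemokine, had the lowest p of this list with miR-183-5p-EVs (log2 fold change 1.13, SE 0.44, unadjusted p = 0.0101). Its counts were 672, 253 and 534 with miR-183-5p-EVs against 176, 191 and 301 in ctrl. Il10ra, the ligand-binding IL-10 receptor, was at 1179, 1255 and 927 with miR-183-5p-EVs against 1747, 1478 and 1530 in ctrl (log2 fold change -0.50, SE 0.22, unadjusted p = 0.0208). With miR-222-3p-EVs, the TNF receptor adaptor Traf2 (log2 fold change -0.27, SE 0.10, unadjusted p = 0.00553) and the NF-kB subunit Nfkb2 (-0.30, SE 0.13, unadjusted p = 0.0179) were lower in every tumour than in ctrl. In the same group the summed erythroid markers (5 genes, none at 0) were 150.5 to 272 TPM against 361 to 450.4 TPM in ctrl. Of these markers, 5 of 5 were lower at an unadjusted p under 0.05 (DESeq2), beside 2.31% of all genes at that threshold in either direction. Their part in these values was not tested. None of these passed after adjustment over all genes. The other genes with the lowest p of a list against ctrl-EVs had log2 fold changes of 0.22 (Il10rb), 0.28 (Socs2) and -0.46 (Ccl2) with miR-142-5p-EVs, and of -0.49 (Il27), 0.55 (Cntfr), -0.30 (Stat2), -0.52 (Socs1), 0.18 (Myc) and 2.19 (Il20ra, at 8.32 against 1.83 normalised counts) with miR-222-3p-EVs, all with a DESeq2 adjusted p of at least 0.999956. The 10 genes of the IL-10 list that were tested had medians of 0.13, 0.12 and -0.04 in the 3 comparisons.

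The contrast shown next was chosen after seeing the data, and the lists with earlier results known, so its share of pathway genes is a description. Between miR-183-5p-EVs and miR-142-5p-EVs, 25 of the 110 pathway genes (22.7%) had an unadjusted p under 0.05, 16 higher and 9 lower, beside 7.94% of all genes, and 1 passed after adjustment. That gene was Hp, which encodes the acute-phase protein haptoglobin and is on the list of STAT3-induced genes. Its counts were 753, 864 and 723 with miR-183-5p-EVs, 365, 395 and 408 with miR-142-5p-EVs, 632, 554 and 610 with ctrl-EVs and 436, 471 and 817 with miR-222-3p-EVs. Hp was thus lowest in the miR-142-5p-EV tumours and highest in the miR-183-5p-EV tumours, without overlap of either with ctrl. It was 2.004-fold higher with miR-183-5p-EVs than with miR-142-5p-EVs (log2 fold change 1.003, SE 0.22, DESeq2 adjusted p = 0.0118). The log2 fold change was 0.92 to 1.05 over 14 settings, of which 10 gave a call. With edgeR's quasi-likelihood test it did not pass (adjusted p = 0.545), nor in DESeq2 without miR-142-5p tumour 3 (adjusted p = 0.0612), without miR-183-5p tumour 2 (adjusted p = 0.0923) or without miR-183-5p tumour 3 (adjusted p = 0.102). Against ctrl-EVs, Hp had a log2 fold change of -0.62 (SE 0.22, DESeq2 unadjusted p = 0.00437, adjusted p = 0.814) with miR-142-5p-EVs. Cell type markers also differed between miR-183-5p-EVs and miR-142-5p-EVs. All 6 neutrophil markers were higher, 4 of them at an unadjusted p under 0.05 (DESeq2). All 7 macrophage and all 6 T cell markers were lower, 4 and 3 of them at that threshold. No marker of these lists passed after adjustment. Their part in the values of Hp and the other pathway genes was not tested.

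Finally, the genes whose profile over the 12 tumours was most like that of each member were listed among 11541 or 11542 genes with a mean normalised count of at least 100, by Pearson's r of log2(normalised count + 1). These are descriptions over 12 tumours. Osm was most like the neutrophil-attracting chemokines Cxcl3 (r = 0.94) and Cxcl1 (r = 0.90). Lif was most like Lama3 and Lamb3 (r = 0.96 in each), subunits of the basement membrane protein laminin-332. Il6 was most like Maged1 (r = 0.91) and Lrp1 (r = 0.90), Il10 like Bhlhe40 (r = 0.91) and Hs6st2 (r = 0.88), and Il11 like Mtpn (r = 0.96) and Got2 (r = 0.94). Il6ra was most like the zinc finger genes Zfp809 (r = 0.94) and Zfp974 (r = 0.93), Il6st like Aff4 (r = 0.95) and Kat6b (r = 0.94), and Stat3 like Fbxo38 and Arnt (r = 0.96 in each). For Socs3 they were Tceal9 (r = 0.94) and Sugt1 (r = 0.93), and for Tnf Wrb and Zfp296 (r = 0.87 in each).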

How the data were processed

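Polyadenylated RNA of 12 tumours (4 groups of 3, grouped by their labels) was sequenced with a strand-specific kit. The authors quantified reads with Salmon, and the deposited tables give for each of 118783 transcripts an estimated count, a TPM value and an effective length. Counts and TPM were summed per gene by transcript identifier (GENCODE M21, GRCm38, 116710 transcripts matched, 98.3%). The methods and the tables name different Ensembl releases. The 10 genes and the gene lists were chosen with earlier results of these data known.

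A gene was tested where 3 or more libraries had 10 or more reads of it. Rounded estimated counts were tested with DESeq2 1.42.0 in R 4.3.3 (12 libraries in 1 fit, group only, mean effective length as offset, threshold 0.05 after Benjamini-Hochberg adjustment). Normalised counts are corrected for library size and length. Nothing states that tumours of a group came from separate cages or cohorts, so p-values measure the spread between these 12 tumours. In pairs of libraries within groups, chi-square per degree of freedom was 14.0 to 60.2, so none was a copy. The fits were tested on simulated data, where DESeq2 recovered more of the changed genes than edgeR but also made more false calls. Of each pathway list the text names genes called against ctrl-EVs (there were none) and, per comparison against ctrl-EVs, the gene with the lowest p. Some genes that this rule would name are not reported here. Also named are the 2 genes most like each of the 10, and transcripts with at least 10% of a gene's TPM. Timp1, the contrast shown for Hp, the relations with cell type markers, and the relations of Socs3 by rank, in 8 libraries and without miR-142-5p tumour 1 were chosen after seeing the data. Alternatives were edgeR 4.0.16, TMM factors, other count filters, no length offset, only the 2 groups, the tumour number as a block, and each tumour left out. Tables were handled with Python 3.11.15 and scipy 1.17.1.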

Additional observations from a re-analysis of the deposited data

How the results depend on the processing

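None of the 10 genes was called against ctrl-EVs under edgeR, TMM factors, any count filter, no length offset, the 2 groups alone or any tumour left out, all with DESeq2 unless named. Calls appeared only between groups. For miR-183-5p-EVs against miR-142-5p-EVs, 1 gene was called in a fit of the 2 groups alone, and 0 to 2 when 1 tumour was left out. For any difference among the 4 groups this gave 0 to 1, and among pathway genes with miR-142-5p-EVs against ctrl 0 to 1. Of the 9 relations of Socs3, 4 passed, and 0 in the 8 libraries of the larger set. With TPM 4 passed too, but with Tnf in place of Il6ra. The cause of these shifts was not tested beyond the smaller number of tumours.

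Of 207 values of single genes under other settings, 5 changed sign, all near 0. For miR-142-5p-EVs, Tnf was 0.0023 with a mean of at least 50 reads, and Stat3 0.063 without length offset. For miR-222-3p-EVs, Stat3 was 0.0223 without length offset. Il10 was not tested under the stricter filter. Of 180 values with 1 tumour left out, 38 changed sign, in 18 gene and group pairs. With miR-142-5p-EVs these ranged from -0.21 to 0.18 (Tnf), -1.24 to 0.33 (Il10), -0.38 to 0.30 (Osm), -0.18 to 0.43 (Il11), -0.14 to 0.16 (Il6ra), -0.27 to 0.28 (Il6st), -0.16 to 0.17 (Stat3) and -0.15 to 0.28 (Socs3). With miR-183-5p-EVs they ranged from -0.22 to 0.56 (Lif), -0.42 to 0.14 (Il6st) and -0.10 to 0.24 (Stat3). With miR-222-3p-EVs they ranged from -0.17 to 0.22 (Tnf), -0.048 to 0.73 (Il6), -0.091 to 0.29 (Il10), -0.17 to 0.22 (Osm), -0.54 to 0.24 (Lif), -0.38 to 0.22 (Il6st) and -0.23 to 0.10 (Stat3).

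With the tumour number as a replicate block, 0 of the 10 genes were called in any comparison, and Tnf (0.0071) and Osm (-0.0025) changed sign with miR-142-5p-EVs. Tumours of the same number did not deviate together on average (mean r = -0.07 over 18 pairs, 0.03 over 36 pairs of different number). Single pairs of the same number ranged from -0.58 to 0.36. Whether the number marks a shared batch cannot be told from so few pairs. Values of Il10 rest on 6 to 79 reads per tumour.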
